A study of Mus musculus with 16 samples.

Results

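The genes examined here are the hormone and hormone-like peptide genes of the pancreatic islet: Ins1, Ins2, Iapp, Gcg, Sst, Ppy, Pyy, Ghrl, Ucn3 and Npy. These 10 genes were chosen by name, and all 10 are among the 23329 genes of the deposited count table. The libraries come from BetaTC6, a mouse β-cell line derived from an insulinoma and labelled with a C57BL/6 background. After 3 days of growth and a preincubation without glucose, wild-type cells and cells labelled as a P2ry1 knockout received 20 mM glucose for 30 min, together with ivermectin or its vehicle DMSO. The 4 groups, with 4 libraries each, are therefore wild type with vehicle, wild type with ivermectin, knockout line with vehicle and knockout line with ivermectin. P2ry1 encodes a purinergic receptor that responds to extracellular ADP, and ivermectin is an antiparasitic drug that acts on several ligand-gated channels. All 16 libraries share the cell line, the high glucose and the buffer. The labels do not say whether the libraries of a group came from separate cultures, and p-values then measure the spread between these libraries, which may be technical.

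Each islet endocrine cell type is classically defined by 1 main hormone. Beta cells make insulin together with islet amyloid polypeptide (Iapp), which is stored in the same granules. Alpha cells make glucagon (Gcg), delta cells somatostatin (Sst), gamma cells pancreatic polypeptide (Ppy) and epsilon cells ghrelin (Ghrl). Mice carry a pair of insulin genes, of which Ins2 is the ancestral gene and Ins1 a retroposed copy, and both encode functional insulin. Neuropeptide Y (Npy) and peptide YY (Pyy) belong to the same family as pancreatic polypeptide, and urocortin 3 (Ucn3) is released by mature mouse beta cells and acts on delta cells. In RefSeq for GRCm38.p6, all 10 are protein-coding genes on 7 chromosomes, and Ppy (chr11:102099931-102101319) and Pyy (chr11:102106676-102107832) are neighbours.

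Library totals ranged from 893088 to 2013242 counts, and the 4 lowest were those of wild type with vehicle. With 3 counts taken as its limit, a count of 0 allowed 1.49 to 3.36 CPM, the unit of counts scaled to library size, and these limits cover counting error only. P2ry1 itself was at 94.6 ± 8.57 CPM (SD, n = 4) in wild type with vehicle and at 84.0 ± 8.98 CPM in the knockout line with vehicle, the groups overlapped, and edgeR gave the difference an adjusted p of 0.245. With ivermectin it was at 93.1 ± 7.58 CPM and 85.5 ± 4.95 CPM (edgeR adjusted p = 0.394). The labels do not state which part of P2ry1 was changed, so these gene-level counts do not check the genotype, and "knockout line" below repeats the label. The labels name 1 such line, whose genotype cannot be told apart from any other difference between the lines. Of the 10 beta-cell markers listed to check the cell type, 9 were at 10 CPM or more in every group, and Ucn3 was the exception. Markers of acinar, stellate, endothelial and immune cells summed, for each type, to at most 6.85 CPM in any library. Those of ductal cells summed to 12.7 to 20.8 CPM in the wild-type groups and 3.43 to 10.4 CPM in the knockout groups. Of the 5 ductal markers, Spp1 alone averaged 10 CPM or more in the wild-type groups, and Krt19 had no count in any group. Krt7 averaged 3.24 CPM in wild type with vehicle and 3.53 CPM in the knockout line with vehicle. A list of 10 hepatocyte genes summed to 625 to 1744 CPM in wild type with vehicle, to 107 to 322 CPM in wild type with ivermectin, to 37.6 to 116 CPM in the knockout line with vehicle and to 71.4 to 268 CPM in the knockout line with ivermectin.

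Promoter sequence is shown for the 4 genes whose level differed between the lines and for Ins1, an insulin gene that did not pass the test. The RefSeq promoter table, of build GRCm38.p6, held 9 of the 10 genes, Ins2 being the other one, and the submitters' processing notes name mm10, which is GRCm38. Each sequence is the 250 bases before the start site, written 5′ to 3′ on the strand of the gene, with matches to 3 motifs in capitals. The motifs were the cAMP response element TGACGTCA, the insulin E box GCCATCTG and the homeodomain core TAAT, each searched on both strands, so that ATTA is TAAT on the other strand. The stretches are chr16:23890845-23891094 on the minus strand for Sst, chr6:49822460-49822709 on the plus strand for Npy, chr2:62483654-62483903 on the minus strand for Gcg, chr6:142298175-142298424 on the plus strand for Iapp and chr19:52264047-52264296 on the plus strand for Ins1.
Sst: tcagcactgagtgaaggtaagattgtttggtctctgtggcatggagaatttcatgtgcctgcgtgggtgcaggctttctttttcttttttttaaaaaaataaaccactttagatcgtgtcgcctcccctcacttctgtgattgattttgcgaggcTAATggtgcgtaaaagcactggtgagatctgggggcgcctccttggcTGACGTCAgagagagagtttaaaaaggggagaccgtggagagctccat
Npy: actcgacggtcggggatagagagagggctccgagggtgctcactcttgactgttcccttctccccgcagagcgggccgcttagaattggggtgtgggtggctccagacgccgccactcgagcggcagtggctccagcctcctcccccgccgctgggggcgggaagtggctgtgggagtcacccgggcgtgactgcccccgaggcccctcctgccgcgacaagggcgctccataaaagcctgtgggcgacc
Gcg: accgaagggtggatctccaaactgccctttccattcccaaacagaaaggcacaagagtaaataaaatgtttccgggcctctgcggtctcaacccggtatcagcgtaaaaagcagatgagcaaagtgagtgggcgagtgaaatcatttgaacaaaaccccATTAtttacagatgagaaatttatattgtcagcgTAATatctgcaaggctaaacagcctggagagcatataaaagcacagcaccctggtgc
Iapp: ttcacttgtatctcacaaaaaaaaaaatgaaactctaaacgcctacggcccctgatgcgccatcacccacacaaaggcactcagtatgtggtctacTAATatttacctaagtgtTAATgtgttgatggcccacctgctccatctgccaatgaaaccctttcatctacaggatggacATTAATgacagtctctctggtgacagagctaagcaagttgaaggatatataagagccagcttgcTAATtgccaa
Ins1: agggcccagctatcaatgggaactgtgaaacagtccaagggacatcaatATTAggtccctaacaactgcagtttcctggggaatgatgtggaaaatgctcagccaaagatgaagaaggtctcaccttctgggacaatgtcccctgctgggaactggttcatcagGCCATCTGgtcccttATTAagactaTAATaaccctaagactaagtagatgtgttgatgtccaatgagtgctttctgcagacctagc
Of the 9 genes, Sst alone held the full cAMP response element, which begins 48 bases before the start site. This motif was found in 1.55% of the 32851 promoters of the table, searched over the same 250 bases. Ins1 alone held the full insulin E box, 86 bases before the start, against 1.11% of all promoters. The homeodomain core, which 54.9% of promoters held, was present 5 times in Iapp, 3 times in Ins1, 2 times in Gcg and 1 time in Sst. It was not found in this window of Npy. Among the genes not shown, Ucn3 held it 2 times and Ppy, Pyy and Ghrl did not hold it. The Iapp matches at 74 and 72 bases before the start overlap. A longer predicted Sst model in RefSeq has exons within the stretch shown, and the gene's span is chr16:23889573-23891342. These matches describe letters and were not tested as binding sites.

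Insulin led the transcriptome of this line. Levels between genes are given here as TPM, which corrects for library size and for transcript length. Ins2 ranked 1st of all genes in each of the 16 libraries, at 105945 to 130872 TPM. Iapp ranked 2nd in each of them, at 15933 to 22276 TPM. Npy and Ins1 followed between ranks 3 and 6. Npy lay above Ins1 in wild type with vehicle, at 7980 ± 286 TPM (SD, n = 4) against 7104 ± 299.8 TPM, and below it in the knockout line with vehicle, at 4869 ± 227 TPM against 6014 ± 458 TPM. The Npy and Ins1 ranges did not overlap in either of these groups. That order rests on the length of 1018 bases that the deposited tables give Ins1, whereas the RefSeq transcript of GRCm38.p6 has 601 bases. With the RefSeq length Ins1 would be at 14684 ± 496 TPM in wild type with vehicle, above Npy there as well.

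The glucagon and somatostatin genes were read at far lower levels. Gcg was at 291.5 to 539 TPM over the 16 libraries and ranked between 264 and 504. Sst was at 787 to 928 TPM in the wild-type libraries, above Gcg, and at 44.4 to 91.3 TPM in the knockout libraries, below Gcg. By TPM the order of the 2 genes was thus opposite in the 2 lines, with no overlap of their ranges within a group. By CPM, which does not correct for length, Gcg was above Sst in both lines, at 297 against 218 CPM in wild type with vehicle. The 10 genes together took 2.86 to 3.86% of a library's counts, and Ins1 and Ins2 gave 72.2 to 76.9% of that share.

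The other 4 genes were at or near 0 and did not pass the filter on low counts, which 6 of the 10 genes and 10820 of all 23329 genes passed. Ppy had 17 counts in all, spread over 9 libraries with at most 3 in any one. Ucn3, a gene of mature mouse beta cells, had 10 counts in 7 libraries. Ghrl had 2 counts, 1 in each of a pair of wild-type ivermectin libraries, and Pyy had 1 count. These 4 genes were not compared between groups, and their levels lay at or near what a count of 0 allows.

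**Figure D1:**
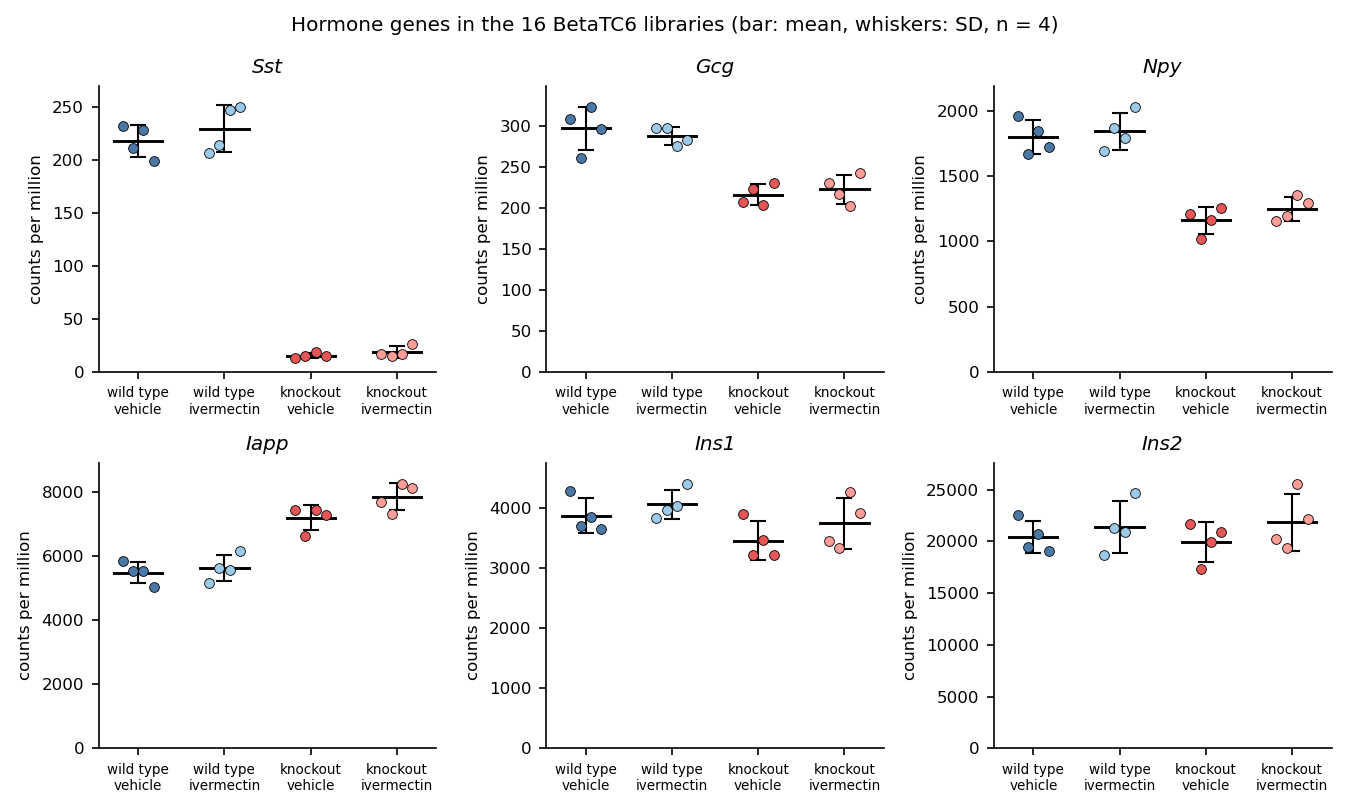
Level of the 6 hormone genes that passed the count filter, in CPM on axes that start at 0, with 1 point per library and the group mean and SD (n = 4). Sst, Gcg and Npy lie lower and Iapp higher in every knockout library than in any wild-type library, while the Ins1 and Ins2 groups overlap.

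Between the lines, 4 of the 6 hormone genes that could be tested were called, under vehicle and under ivermectin alike. Sst, Npy and Gcg were lower and Iapp was higher, whereas neither insulin gene passed the test. With edgeR's quasi-likelihood test at an adjusted p of 0.05, 20.7% of all tested genes were called under vehicle (9.86% higher and 10.8% lower) and 27.8% under ivermectin (13.9% higher and 13.9% lower). The 2 comparisons share no library. The median log2 change of the 6 tested members was -0.31 under vehicle and -0.24 under ivermectin, against -0.00066 and -0.0004 over all tested genes. With so many genes called, the count of 4 of 6 says little by itself, and the sizes are given gene by gene.

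Sst, the delta-cell hormone that inhibits insulin and glucagon release, differed most. Its counts were 207, 216, 214 and 215 in the wild-type vehicle libraries and 415, 392, 374 and 327 in the wild-type ivermectin libraries. In the knockout line they were 22, 29, 38 and 29 with vehicle and 31, 26, 26 and 41 with ivermectin, although those libraries were deeper than those of wild type with vehicle. Every knockout library was therefore below every wild-type library, in counts as in CPM. Scaled to library size, Sst fell from 218 ± 15.4 CPM (SD, n = 4) to 15.4 ± 2.6 CPM under vehicle, and from 230.1 ± 22.2 CPM to 18.7 ± 5.27 CPM under ivermectin. The log2 fold change was -3.80 (SE 0.127, 14.0-fold lower, edgeR adjusted p = 2.92e-23) under vehicle and -3.62 (SE 0.119, 12.3-fold lower, adjusted p = 1.65e-23) under ivermectin. Among the 10820 tested genes this was the 27th most negative change under vehicle and the 9th under ivermectin. Fewer cells that express Sst and less Sst RNA per cell cannot be told apart in such bulk libraries.

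The other delta-cell markers were near 0 or differed less. All 4 markers of the list had a count in each group, and with Sst included they summed to 279.7 to 336 CPM in wild type with vehicle, 267 to 318 CPM in wild type with ivermectin, 67.2 to 90.8 CPM in the knockout line with vehicle and 70.3 to 94.7 CPM in the knockout line with ivermectin. Hhex, a transcription factor of delta cells, and Ghsr, the ghrelin receptor, averaged at most 1.315 and 1.05 CPM in any group, near what a count of 0 allows. Rbp4, which encodes a retinol carrier, was at 83.4 ± 14.4 CPM in wild type with vehicle and 61.7 ± 7.62 CPM in the knockout line with vehicle, a log2 fold change of -0.43 (SE 0.124, edgeR adjusted p = 0.0106). Under ivermectin Rbp4 was at 62.4 ± 3.61 CPM and 62.8 ± 9.8 CPM, with an adjusted p of 0.976.

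Npy, a peptide that restrains insulin release, was lower in the knockout line. Its levels were 1962, 1667, 1849 and 1727 CPM in wild type with vehicle and 1692, 1871, 1789 and 2029 CPM in wild type with ivermectin. They were 1211, 1015, 1163 and 1254 CPM in the knockout line with vehicle and 1157, 1192, 1353 and 1295 CPM with ivermectin. The highest knockout library thus lay below the lowest wild-type library. The log2 fold change was -0.63 (SE 0.0641, 1.55-fold lower, edgeR adjusted p = 1.65e-09) under vehicle and -0.56 (SE 0.0634, 1.48-fold lower, adjusted p = 1.54e-08) under ivermectin.

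Gcg, which encodes proglucagon, followed the same direction with a smaller change. It was at 308, 261, 323 and 296 CPM in wild type with vehicle and at 297, 297, 275 and 282.5 CPM in wild type with ivermectin. In the knockout line it was at 207, 223, 203 and 229.9 CPM with vehicle and at 230, 216.5, 202 and 243 CPM with ivermectin. The groups were apart in both comparisons, although the lowest wild-type and the highest knockout libraries lay close. The log2 fold change was -0.46 (SE 0.0724, 1.37-fold lower, edgeR adjusted p = 9.69e-06) under vehicle and -0.37 (SE 0.0691, 1.29-fold lower, adjusted p = 9.4e-05) under ivermectin. Ttr, another alpha-cell marker, which encodes transthyretin, went the other way and rose from 600.1 ± 49.9 CPM to 845 ± 85.5 CPM under vehicle (log2 fold change 0.49, SE 0.0668, edgeR adjusted p = 6.73e-07). The 6 alpha-cell markers, Gcg included, summed to 836 to 998 CPM in wild type with vehicle, 865 to 962 CPM in wild type with ivermectin, 991 to 1179 CPM in the knockout line with vehicle and 1081 to 1172 CPM in the knockout line with ivermectin, and the part of other cells in the Gcg difference was not tested.

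Iapp was the 1 hormone gene that rose. Its levels were 5843, 5535, 5550 and 5048 CPM in wild type with vehicle and 5179, 5629, 5569 and 6179 CPM in wild type with ivermectin. They were 7451, 6632, 7459 and 7283 CPM in the knockout line with vehicle and 7713, 7333, 8275 and 8149 CPM with ivermectin. Each knockout library exceeded each wild-type library. The log2 fold change was 0.39 (SE 0.0516, 1.31-fold higher, edgeR adjusted p = 4.2e-07) under vehicle and 0.48 (SE 0.0515, 1.4-fold higher, adjusted p = 5.16e-09) under ivermectin.

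Neither insulin gene passed the test in either comparison of the lines. Ins2 was at 20444 ± 1555 CPM (SD, n = 4) in wild type and 19941 ± 1894 CPM in the knockout line with vehicle, a log2 difference of -0.04 (SE 0.0693, edgeR adjusted p = 0.765), and the difference under ivermectin was 0.03 (SE 0.0692, adjusted p = 0.794). Ins1 was at 3866 ± 290.2 CPM in wild type and 3452 ± 321 CPM in the knockout line with vehicle, a log2 difference of -0.16 (SE 0.065, adjusted p = 0.0704). Under ivermectin the Ins1 difference was -0.12 (SE 0.0647, adjusted p = 0.183). The Ins1 and Ins2 groups overlapped in both comparisons. Ins1 was near the threshold. Under vehicle edgeR called it lower without replicate 1 of the knockout vehicle group (-0.23, adjusted p = 0.0133) and in a fit of only the libraries compared (-0.17, adjusted p = 0.0208), and under ivermectin without replicate 3 of the knockout ivermectin group (-0.18, adjusted p = 0.0391).

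The hepatocyte genes moved with the comparison under vehicle, where 10 of 10 were called lower in the knockout line, but 0 of 10 were called under ivermectin. They were also 10 of the 65 genes called with ivermectin in wild type, all lower, and 8 of the 24 genes called in the interaction. Spp1, the only 1 of the 5 ductal markers that could be tested, was called lower in the knockout line under vehicle (-1.80, SE 0.428, edgeR adjusted p = 0.00196) and under ivermectin (-1.85, SE 0.375, adjusted p = 0.000287). The 4 hormone genes were called in both comparisons. The part of other cells' RNA in the hormone differences was not tested. Rn45s and Lars2 stood high in replicate 4 of wild type with ivermectin.

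**Figure D2:**
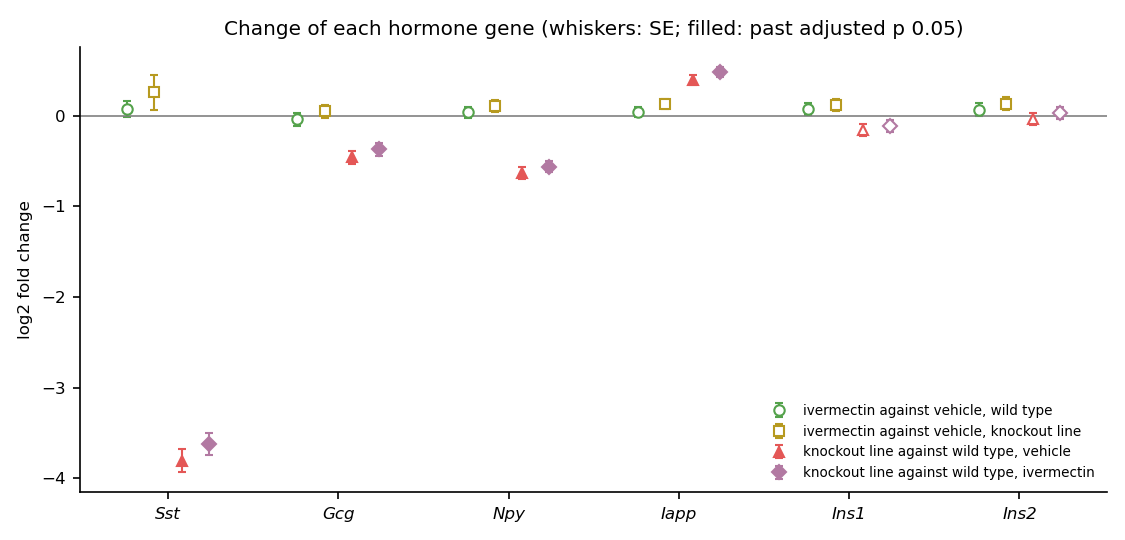
Log2 fold change of each hormone gene in the 4 pairwise comparisons, with whiskers of 1 SE, filled where the edgeR adjusted p was under 0.05. The knockout comparisons lie far below 0 for Sst, moderately below for Gcg and Npy and above 0 for Iapp, and none of the ivermectin points is filled.

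Ivermectin for 30 min changed no hormone gene past the test. The wild-type vehicle libraries serve here and in the comparison of the lines under vehicle. With edgeR, 65 genes (0.601% of those tested) were called in wild type and 0 (0%) in the knockout line, where 820 genes had an unadjusted p under 0.05, the lowest adjusted p was 0.521, and DESeq2 also called 0. In wild type the 6 log2 differences of the hormone genes ran from -0.04 for Gcg to 0.07 for Sst, with edgeR adjusted p = 1 for each. In the knockout line all 6 were above 0, from 0.05 for Gcg to 0.26 for Sst (SE 0.194). The smallest p there belonged to Iapp, with a log2 difference of 0.13 (SE 0.0513, edgeR adjusted p = 0.619). The groups overlapped for each of the 6 genes in both lines.

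The interaction compares the ivermectin difference between the 2 lines, and 24 of all tested genes (0.222%) were called in it, none of them a hormone gene. The 6 interaction estimates ran from 0.05 for Ins1 to 0.19 for Sst (SE 0.211), and edgeR gave each of them an adjusted p of 1.

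The Ins1 to Ins2 ratio within a library needs no scaling between libraries. By counts it was 0.19, 0.19, 0.186 and 0.191 in wild type with vehicle and 0.205, 0.186, 0.193 and 0.178 in wild type with ivermectin. It was 0.18, 0.186, 0.174 and 0.154 in the knockout line with vehicle and 0.171, 0.172, 0.167 and 0.177 with ivermectin. The means were 0.189 ± 0.0022, 0.191 ± 0.0112, 0.174 ± 0.0138 and 0.172 ± 0.0041 in that order (SD, n = 4). Ins1 thus gave 13.4 to 17% of the insulin counts of a library. The insulin genes are close in sequence, RSEM divides reads that match both by estimate, and the effect of that division on the ratio was not tested.

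The ratio was lower in the knockout line by 0.13 on the log2 scale under vehicle, where the groups overlapped, and by 0.15 under ivermectin, where they did not. Under vehicle the difference was -0.07 without replicate 4 of the knockout vehicle group, and the groups no longer overlapped without replicate 2 of that group or without replicate 3 of wild type with vehicle. Exact two-sided permutation tests of the 4 comparisons gave p = 0.0571 under vehicle and p = 0.0286 under ivermectin, which is the smallest p that 4 against 4 libraries can give. After Benjamini-Hochberg adjustment over the 4 comparisons both were at 0.114, which is the lowest that a single comparison at the smallest p could reach, so the adjusted test says little here. Ivermectin against vehicle gave exact p = 0.8 in wild type and p = 0.857 in the knockout line. Per length the ratio was lower, at 0.058 ± 0.00153 in wild type with vehicle by TPM and at 0.131 ± 0.0022 with RefSeq transcript lengths, so its level depends on the Ins1 length while the difference between lines does not change direction.

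The Iapp to Ins2 ratio of counts is given as a description. It was 0.269 ± 0.0111 and 0.264 ± 0.0111 in wild type with vehicle and with ivermectin, and 0.363 ± 0.0189 and 0.363 ± 0.0268 in the knockout line. Its lowest knockout value, 0.324, was above its highest wild-type value, 0.285.

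**Figure D3:**
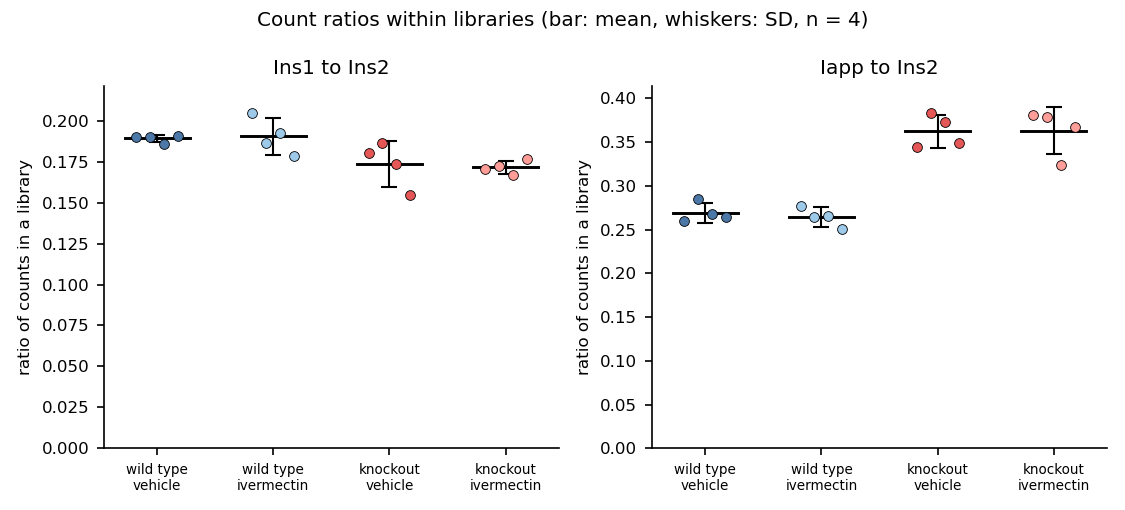
Ins1 to Ins2 and Iapp to Ins2 ratios of counts, 1 point per library, with the group mean and SD (n = 4) on axes that start at 0. The Ins1 to Ins2 means lie between 0.172 and 0.191, and the Iapp to Ins2 ratio is higher in every knockout library than in any wild-type library.

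The genes whose pattern over the 16 libraries was most like that of Ins1, Ins2 and Iapp were sought among 6576 well-read genes, by the root mean square difference of log2 CPM after each gene's own mean was taken away. For Ins1 they were Dcun1d5 (0.0659), Uchl1 (0.0662) and Sec61b (0.0687), of which Uchl1 encodes a deubiquitinating enzyme and Sec61b a subunit of the protein channel of the endoplasmic reticulum. For Ins2 they were Rpl11 (0.0441), Sct (0.0584) and Rpl21 (0.0597), of which Sct encodes the peptide secretin and Rpl11 and Rpl21 encode ribosomal proteins. For Iapp they were Spc25 (0.0396), Gnb2l1 (0.0563) and Ccnb2 (0.0602), of which Spc25 encodes a kinetochore protein and Ccnb2 a mitotic cyclin. The insulin genes were not each other's nearest, since Ins2 ranked 30th for Ins1 and Ins1 ranked 55th for Ins2. The points share library depth and composition, so these distances are descriptions.

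Genes that act with the hormones were followed in 4 lists. With ivermectin 0 genes of these lists were called in wild type, in the knockout line or in the interaction, beside 0.601%, 0% and 0.222% of all tested genes, so nothing is read from that count. All differences below are between the lines, beside the same 20.7% and 27.8% of all tested genes.

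Of 7 tested hormone receptors, 3 were called under vehicle (1 higher, 2 lower) and 5 under ivermectin (1 higher, 4 lower). The median log2 change was -0.07 and -0.28, against -0.00066 and -0.0004 over all genes. Gipr, the receptor for the incretin GIP, fell from 16.2 ± 6.31 CPM to 6.2 ± 1.4 CPM under vehicle (log2 fold change -1.35, SE 0.292, edgeR adjusted p = 0.000749). Sstr3, a somatostatin receptor, fell from 72.4 ± 9.37 CPM to 53.1 ± 5.01 CPM (-0.45, SE 0.119, adjusted p = 0.00495) and under ivermectin from 81.3 ± 5.32 CPM to 46.1 ± 6.25 CPM (-0.82, SE 0.11, adjusted p = 5.29e-07). Ramp1, which pairs with calcitonin-family receptors, rose from 5.49 ± 3.17 CPM to 12.8 ± 2.91 CPM under vehicle (1.25, SE 0.332, edgeR adjusted p = 0.00559). Insr, the insulin receptor (-0.41, SE 0.129, adjusted p = 0.0169), and Glp1r, the receptor for the incretin GLP-1 (-0.28, SE 0.104, adjusted p = 0.0396), were called lower under ivermectin alone, and whether they differ between treatments was covered by the interaction test, which called neither.

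Of 7 tested genes for other secreted peptides, 2 were higher and 2 lower in both comparisons. The 2 lower ones, Pdyn and Gal, passed the count filter through their wild-type libraries alone, and their levels are given without a p-value. Igf2, the growth factor gene next to Ins2, rose from 2272 ± 98.3 CPM to 3700 ± 90.7 CPM under vehicle (log2 fold change 0.70, SE 0.0499, edgeR adjusted p = 3e-13). Cck, which encodes cholecystokinin, rose from 785 ± 48.8 CPM to 1057 ± 72.8 CPM (0.43, SE 0.0682, adjusted p = 1.05e-05). Pdyn, the prodynorphin gene, was at 17.2 ± 5.93 CPM in wild type with vehicle and had 0 counts in the knockout line with vehicle. Its level there was at least 10.03-fold lower when 3 counts per library are taken as the limit. With ivermectin it was at 19.8 ± 7.42 CPM in wild type, and the 4 knockout libraries held 1 count. Gal, which encodes galanin, was at 7.97 ± 3.21 CPM in wild type with vehicle and had 4 counts in all in the knockout line with vehicle. The median log2 change of the 7 genes was -0.05 under vehicle and -0.02 under ivermectin.

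Of 15 tested transcription factors that act on hormone genes, 3 were called under vehicle and 7 under ivermectin, all lower. The median log2 change was -0.20 and -0.21. Pdx1, an activator of insulin, Iapp and Sst, fell from 319 ± 15.3 CPM to 262 ± 6.72 CPM under vehicle (-0.28, SE 0.0681, edgeR adjusted p = 0.00211). Isl1, a homeodomain factor of islet cells, fell from 327 ± 11.5 CPM to 244 ± 4.99 CPM (-0.42, SE 0.0682, adjusted p = 1.36e-05), and Mnx1, another homeodomain factor, from 22.5 ± 4.49 CPM to 9.06 ± 2.8 CPM (-1.31, SE 0.248, adjusted p = 0.000132). The same 3 were called under ivermectin, joined among others by Glis3 (-1.29, SE 0.344, adjusted p = 0.00466), Rfx3 (-0.63, SE 0.185, adjusted p = 0.00927) and Neurod1, an activator of insulin transcription (-0.23, SE 0.0777, adjusted p = 0.022).

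Of 19 tested genes for prohormone processing and the secretory granule, 10 were called in each comparison, 1 higher and 9 lower. Chgb, a granule protein gene, fell most, from 1221 ± 60.6 CPM to 696 ± 25.8 CPM under vehicle (-0.81, SE 0.0515, edgeR adjusted p = 1.46e-14). Pam, the enzyme that amidates peptides such as Iapp and Npy, fell from 293 ± 18 CPM to 218 ± 9.63 CPM (-0.43, SE 0.0698, adjusted p = 1.49e-05). Hspa5 and Pdia4, chaperones of the endoplasmic reticulum, fell by 0.29 and 0.35 on the log2 scale, and Ptprn2, a granule membrane protein gene, by 0.30. Vgf, a secreted granule protein gene, rose from 340.3 ± 41.3 CPM to 443 ± 6.16 CPM (0.38, SE 0.0673, edgeR adjusted p = 6.54e-05). The list's median log2 change was -0.04 under vehicle and -0.10 under ivermectin, against -0.00066 and -0.0004 over all genes.

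**Figure D4:**
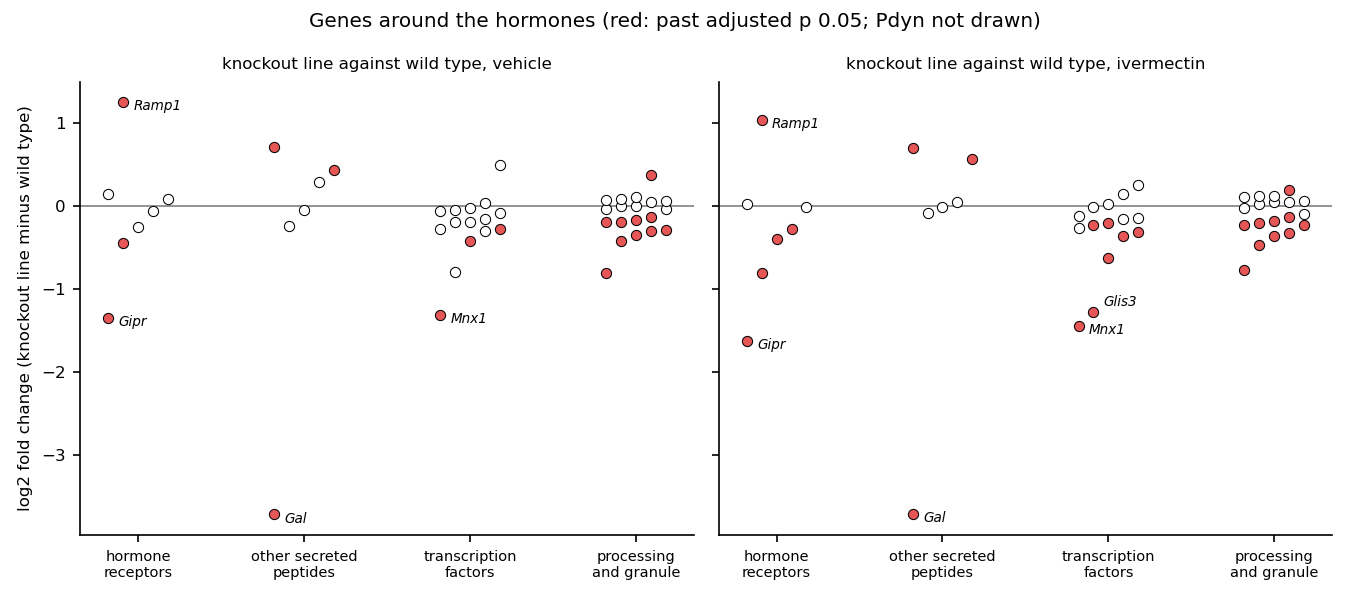
Log2 fold change of the knockout line over wild type for each tested gene of the 4 lists, under vehicle and under ivermectin, red where the edgeR adjusted p was under 0.05. Pdyn is not drawn because it had 0 and 1 counts in the knockout groups, and the called transcription factors all lie below 0.

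Human orthologs were read in single islet cells of another study, whose tables accompany the mouse libraries. The table held 1081 cells from 6 donors without type 2 diabetes, all of them marked as passing quality and all with a cell type given by that study, with 17315 to 5083415 counts a cell. The counts are of reads, not of UMIs. Of 14 annotated types, the 11 with at least 5 cells are described. Values are CPM of a cell over all genes, given as medians over cells with the range of donor medians for donors with at least 5 such cells. The annotation may have used these same hormones, so the match of a hormone to its type is a description, and no test was made. Human cells have 1 insulin gene, INS, so the 10 mouse genes have 9 orthologs, all present.

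In the beta, alpha, delta, gamma and epsilon cells 1 hormone was far above the others. INS had a median of 157347 CPM in 164 beta cells (donor medians 57172 to 251273), which is 15.7% of a cell's counts. GCG was at 123543 CPM in 437 alpha cells (40904 to 171421), SST at 250894 CPM in 59 delta cells (174784 to 377199) and PPY at 110450 CPM in 74 gamma cells (80633 to 216216). GHRL was at 27268 CPM in 5 epsilon cells, too few for donor medians. The type's own hormone was the most read of the 9 in 163 of 164 beta cells, 431 of 437 alpha cells and all 59 delta and 74 gamma cells (95% exact interval from 93.9% for delta cells).

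These hormones were also read at low levels in other types. INS had a median of 43.1 CPM in 111 acinar cells, 95.5% of which had a read, and GCG a median of 22.8 CPM there. INS was at 68.4 CPM in alpha cells and 109 CPM in delta cells, and SST was at 16.4 CPM in beta cells, 17.2 CPM in alpha cells and 0 CPM in acinar cells, 44.1% of which had a read. The median depth was 662686 counts in acinar cells, 547765 in beta cells and 462289 in alpha cells. The non-endocrine types differed among themselves: SST was at 23.9 CPM in the 23 cells labelled PSC and 11.2 CPM in 13 endothelial cells, and GCG at 112 and 151.5 CPM in them, beside 130 CPM in beta cells. INS was at 28.7 CPM in the PSC cells, 29.1 CPM in endothelial cells and 49.8 CPM in 135 ductal cells, below its medians in alpha and delta cells, and at 31.3 CPM in the 5 epsilon cells. The source of these reads was not tested.

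IAPP was highest in beta cells, at a median of 3108 CPM (donor medians 573 to 9525). It was at 2521 CPM in the co-expression cells and at most 17.7 CPM in the other 9 types. Within beta cells the IAPP to INS ratio of counts had a median of 0.021 (quartiles 0.00616 and 0.0755) and donor medians from 0.0022 to 0.0837, and no cell of the 164 had more IAPP than INS. A read-through gene that overlaps INS, INS-IGF2, had a read in 97 of the 164 beta cells with a median of 3.33 CPM, far below that of INS. The Iapp to Ins2 ratio of the mouse line given above is a ratio of other genes in other libraries, and the 2 were not compared.

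UCN3, NPY and PYY had a median of 0 CPM over the cells of each of the 11 types. Donors differed, with donor medians from 0 to 46.4 CPM for NPY in beta cells and from 0 to 19.6 CPM for UCN3 in alpha cells. In the co-expression cells the highest donor median was above 0 for each of these genes. UCN3 had a read in 43.7% of alpha cells (191 of 437), 37.8% of gamma cells (28 of 74) and 21.3% of beta cells (35 of 164), and in 11 of the 25 co-expression cells (44%, 95% exact interval 24.4 to 65.1). It had a read in 0 of 59 delta cells, which allows a share of cells with a read of up to 5.08% when 3 cells are taken as the limit, and in 0 of 111 acinar cells, which allows up to 2.7%. With every cell thinned to 100000 reads the shares were 36.1% (95% exact interval 31.3 to 41.2) of 382 alpha cells, 32.4% (21.5 to 44.8) of 68 gamma cells and 12.7% (7.69 to 19.3) of 142 beta cells, after 55, 6 and 22 shallower cells were left out. The order of these 3 types was the same after thinning.

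NPY had a read in 28% of beta cells, 15.3% of delta cells and 8.01% of alpha cells, against 1.8% of acinar cells, 1.35% of gamma cells and 1 of the 13 endothelial cells (7.69%). Its share was highest in the co-expression cells, at 12 of 25 (48%, 95% exact interval 27.8 to 68.7). After thinning, the shares were 26.8% (95% exact interval 19.7 to 34.8) in beta cells, 12.2% (4.63 to 24.8) in delta cells, 4.97% (3.02 to 7.66) in alpha cells and 0 of 101 in acinar cells. PYY had a read in 3 of the 25 co-expression cells (12%), 9.15% of alpha cells, 5.41% of gamma cells, 3.66% of beta cells and 0 of 59 delta cells. After thinning it had one in 6.81% (4.49 to 9.81) of alpha cells, 0.704% (0.0178 to 3.86) of beta cells and 0 of 68 gamma cells. These intervals treat cells as independent and cover counting error only, although cells share donors.

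The 25 cells annotated as co-expression cells held INS at 86658 CPM and GCG at 39098 CPM by their medians. INS was the most read hormone in 15 of them, GCG in 5, SST in 4 and IAPP in 1. Doublets were not called here, and whether these held more than 1 cell each was not tested. The 29 unclassified endocrine cells were shallower, at a median of 218914 counts, with INS at 920 CPM and GCG at 735 CPM.

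**Figure D5:**
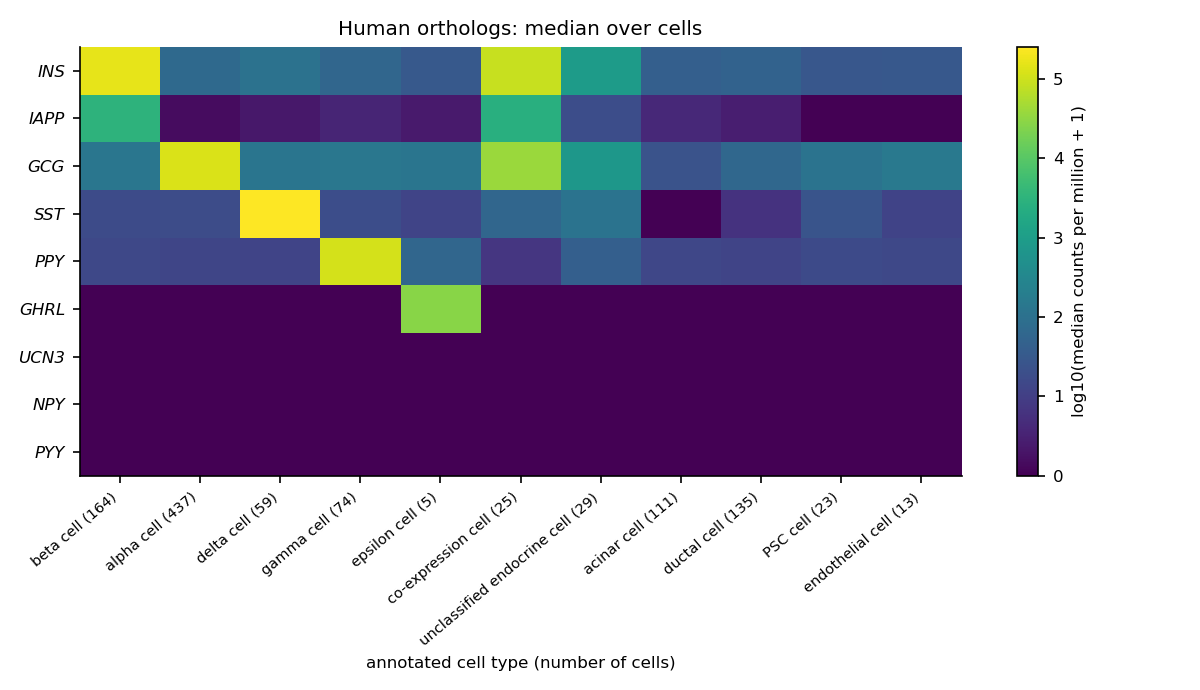
Median level of the 9 human orthologs in each of the 11 annotated cell types, as log10 of the median CPM plus 1, with the number of cells in brackets and the types named as that study names them. INS, GCG, SST, PPY and GHRL are each highest in their own type, and the rows of UCN3, NPY and PYY are at 0 in every type.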

How the data were processed

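The deposited whole-number count table was the input; per the submitters' processing notes the mouse data involved bcl2fastq, STAR 2.7.2b, RSEM 1.3.3, DESeq2 1.32.0 and build mm10. All of its values equalled the authors' RSEM expected counts rounded down. TPM values are the authors' RSEM output, per the file headers, and the deposited normalized signal table equalled whole reads divided by 1 factor per library: 100% of its values came back whole within 1e-06, and a count test on them called the same number of genes in every comparison. Genes were kept with filterByExpr (minimum count 10, minimum total 15) and tested with edgeR 4.0.16 (R 4.3.3; TMM factors, quasi-likelihood F test, 1 mean per group over 16 libraries) with Benjamini-Hochberg adjustment at 0.05. CPM values are TMM-scaled, and each SE is the log2 fold change divided by the square root of F. Ratios were tested by exact permutation. The test was checked on simulated data, where it called 35 of 99 genes changed 1.33-fold, 86 of 100 changed 2-fold and 5 of 10495 unchanged. Changes as small as 1.33-fold could thus go uncalled. The genes, lists and tests were chosen with earlier results of these data known. From each list, at most 6 called genes per comparison could be named, largest change first, from those whose log2 CPM averaged 1 or more. The main tests did not pair libraries by replicate number, because the labels do not say what a shared number marks. The human counts were made by the authors with RSEM on GRCh38.p12, per the series' design text; the table named for donors with diabetes was identical to that for donors without and was not used.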

Additional observations from a re-analysis of the deposited data

Results flagged for a closer look

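The Ins1 to Ins2 count ratio of replicate 3 in wild type with vehicle was 0.186, apart from the other 3 libraries of its group at 0.19 to 0.191. It was flagged because the gap to its nearest neighbour was 0.872 of the group's range, above Dixon's critical value for 4 samples. It was 1 of 32 groups of 4 examined, and chance flags about 1 in 20, or 1.6 here. The gap is small in size, and the ratio of this library stayed within the range of the wild-type ivermectin group, 0.178 to 0.205.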

How the results depend on the processing

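The 8 called hormone gene differences between the lines were called in the same direction in all 152 refits, and the 22 uncalled ones were called in 3 of 460 refits, all of Ins1. The counts over all genes moved more. For ivermectin in wild type the 65 calls became 7 with a mean count of at least 50, when 57.1% of calls were higher against 9.23%, and 140 with no filter. For ivermectin in the knockout line the 0 calls became 23 with no filter. The 24 interaction calls became 15 with DESeq2, 4 with a mean count of at least 50, and 82 with no filter; the cause was not tested. They became 15 without Rn45s, Lars2 and the hepatocyte genes, 8 of which were among the 24 calls. With 1 library left out, the wild-type ivermectin count ran from 55 to 100, the latter without replicate 1 of wild type with ivermectin. The interaction count ran from 8 without replicate 1 of the knockout ivermectin group to 48 without replicate 1 of wild type with ivermectin, and was 14 without replicate 3 of the latter. The counts between the lines stayed within 1.5 times.

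Signs changed only among uncalled values, with 1 library left out. The log2 difference with ivermectin in wild type then ran from -0.0085 to 0.124 for Ins2, -0.00723 to 0.0752 for Iapp, -0.0985 to 0.00331 for Gcg and -0.0112 to 0.0806 for Npy. The Ins2 difference between lines ran from -0.078 to 0.028 under vehicle and from -0.0531 to 0.105 under ivermectin. The interaction ran from -0.0246 to 0.11 for Ins1, -0.0226 to 0.138 for Ins2 and -0.0167 to 0.304 for Sst. The log2 difference of the Ins1 to Ins2 ratio between the lines ran from -0.162 to -0.0717 under vehicle and from -0.181 to -0.114 under ivermectin, and that with ivermectin ran from -0.0271 to 0.0397 in wild type and from -0.0693 to 0.0209 in the knockout line.

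The replicate numbers are shared between groups, and same-numbered libraries deviated together by correlations of -0.051 to 0.145. Some libraries correlated best with their own number and others did not, so whether the numbers mark pairs was not settled. With a replicate block the interaction count was 47, the counts between lines 2275 and 3041, and those with ivermectin 71 and 0, and the Ins1 to Ins2 ratio gave an exact sign-flip adjusted p of 0.25 in both comparisons of the lines, whose raw p was the smallest that 4 pairs allow. The recovered reads and the RefSeq lengths were alternatives chosen after seeing the data. No result of the interaction could be refitted on fewer groups, and the human table held no cells below the quality mark.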
